A study of Mus musculus with 24 samples.

Results

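Copying a genome once per cell cycle takes a fixed set of proteins, and 48 mouse genes that encode them or supply their nucleotides were followed here. They were taken by symbol from a list, and all 48 were present among the 52976 gene symbols of the count files. RNA sequencing covered 24 libraries in 8 groups of 3. Of these, 18 came from wound tissue of diabetic mice at day 1, day 7 and day 14, either diabetic control wounds (titled Dia) or wounds given the peptide hydrogel Fmoc-KYF-AgNCs-3S1C-Hyd2 (titled TEOA), a gel that the series title describes as holding an oxygen-tolerant enzyme of hydrogen metabolism (hydrogenase) and silver nanoclusters, for hydrogen therapy driven by light. The other 6 came from RAW264.7, an established mouse macrophage cell line that divides in culture, with the hydrogel (titled H2) or without it. All 18 wound libraries share diabetes. Strain, age, sex, the way diabetes was brought about, and whether a library is 1 animal or a pool are not given in the sources used here, so a p-value sets a difference against the scatter of these libraries only, and that scatter may be technical. The treatment label reads LPS (bacterial lipopolysaccharide, which activates macrophages) only for the RAW264.7 libraries without hydrogel, and Fmoc-KYF-AgNCs-3S1C-Hyd3, -Hyd4 and -Hyd5 for replicates 1, 2 and 3 with it, while the series design speaks of LPS-induced macrophages in both arms and of Hyd2. Whether the hydrogel arm also received LPS was not settled, and if it did not, hydrogel and LPS cannot be told apart in the cells.

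Replication is prepared before S phase, when the origin recognition complex, Cdc6 and Cdt1 load the MCM helicase onto DNA. Cdc45 and the GINS complex then turn the loaded ring into a working helicase, polymerase alpha with primase starts each strand, and polymerases epsilon and delta extend it, held on the template by the PCNA clamp that replication factor C loads. Ribonucleotide reductase, thymidylate synthase and thymidine kinase make the deoxynucleotides, while Dut, Ung and Dnph1 keep uracil and other unwanted bases out of DNA. Many of these genes are targets of E2F transcription factors and their transcripts are typical of dividing cells, which in a wound include keratinocytes of the regrowing epidermis, hair follicle cells, fibroblasts, endothelial cells and leukocytes.

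Wound libraries held 12428907 to 27062593 counted read pairs and cell libraries 17932839 to 23955760. Libraries of a group were compared by a chi-square per gene, whose median under sampling noise alone would be 0.455. The 3 control libraries of day 7 were nearly alike (pair medians 0.644 to 0.796), as were the 3 RAW264.7 libraries without hydrogel (0.511 to 0.613), whereas pairs of control day 14 libraries gave 8.54 to 34.5 pairs of control day 1 libraries 7.25 to 30.1 and pairs of hydrogel day 1 libraries 7.63 to 26.8. In each of these 3 groups replicate 1 stood apart from replicates 2 and 3, and in the day 14 controls it had the lowest level of its group for 43 of the 48 genes. Marker genes of the tissue varied as well: the summed level of 8 basal keratinocyte markers was between 642 and 8006 CPM (counts divided by library depth, after TMM scaling) over the wound libraries and that of 8 fibroblast markers between 577 and 47453 CPM. In RAW264.7 cells the 8 macrophage markers summed to 6393 to 10385 CPM, and Krt5, Krt14 and Krt15 stood at 0 in all 6 libraries.

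Levels per exon length (RPKM, read pairs per kilobase of exon, scaled as CPM) put Pcna, the clamp, first among the 48 genes in 7 of the 8 groups. It had 26.4 ± 0.40 RPKM (SD, n = 3) in control wounds at day 7, 94.6 ± 4.33 in hydrogel wounds at day 14 and 145 ± 19.1 in RAW264.7 cells with hydrogel. In hydrogel wounds at day 1, Pold2, an accessory subunit of polymerase delta, was listed above it at 32.5 ± 8.87 against 31.3 ± 5.49 RPKM, a gap smaller than either SD. The order below the clamp differed between settings. In control wounds at day 7 it was followed by Gins4 (26.3 ± 0.89 RPKM) and Pold2 (11.2 ± 0.99), with the Gins4 and Pcna values within 1 SD of each other, while in hydrogel wounds at day 14 the helicase subunit Mcm5 (47.1 ± 1.72), the chromatin factor Uhrf1 (38.7 ± 3.62) and Mcm7 (38.6 ± 1.68) came next. In RAW264.7 cells with hydrogel Mcm5 (102 ± 7.63 RPKM) and Mcm3 (95.3 ± 8.75) followed. Orc1, Mcm10 and Fen1 were the lowest 3 genes in control wounds at day 7 and at day 14. Fen1, the flap nuclease that trims Okazaki fragments, is understated: 84.1% of its exon length is shared with Tmem258 and Gm10143 on the opposite strand, and the counting used no strand and left out read pairs that fall on several genes. The same holds for Gins2 (68.8%, shared with Gse1) and Chaf1a (52.5%, with Ubxn6), and 6 further members share between 10.7% and 18.4%. Of the 48 genes, 33 share no exon base with another symbol in the annotation.

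**Figure D1:**
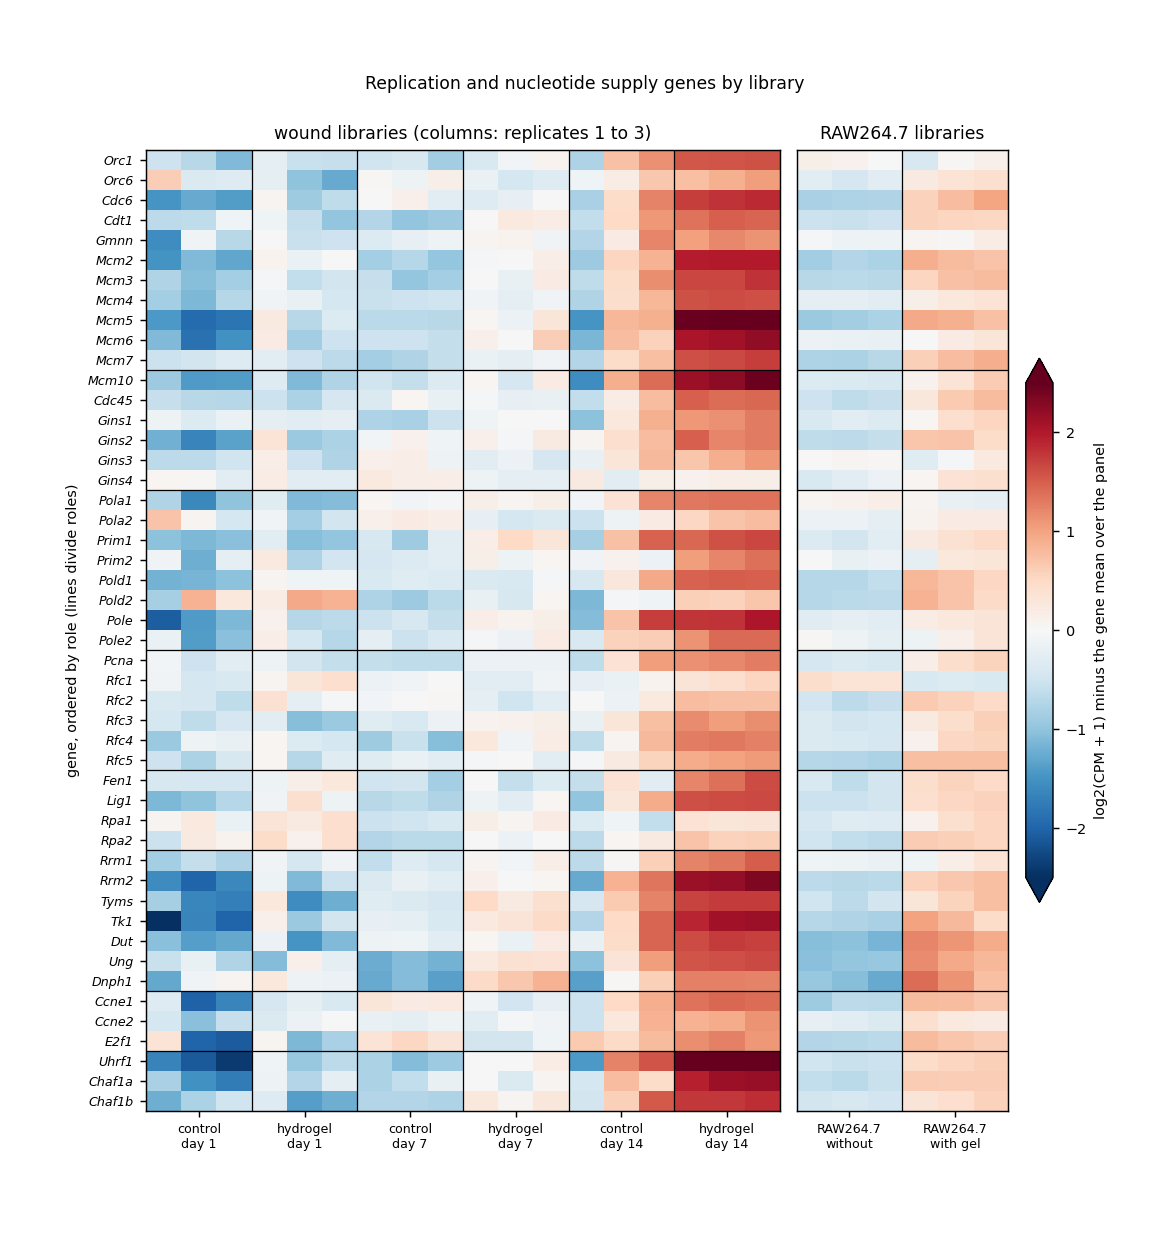
Heat map of log2(CPM + 1) of the 48 genes (rows, in order of role), minus the mean of the gene over the 18 wound libraries or over the 6 RAW264.7 libraries (columns, replicates 1 to 3 of each group; red above the mean, blue below). The 3 hydrogel wounds of day 14 are high across nearly all rows, and in the control wounds of day 14 replicate 1 is the lowest for 43 genes.

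Promoters were examined for short words known as E2F binding sequences, since the members move together in several comparisons. RefSeq promoter sequences (GRCm38.p6, 250 bases before to 50 after the start) were found for 39 of the 48 genes. The words TTTCCCGC, TTTCGCGC, TTTGCCGC and TTTGGCGC, read on both strands, were present in 14 of 39 (35.9%), against 2.6% of all 27025 promoters of that length and 4.18% of those of genes tested in wounds. The words can overlap, as they do in Mcm5 and Mcm6. The members with a word were Orc1, Cdc6, Cdt1, Mcm3, Mcm5, Mcm6, Mcm7, Gins3, Pola1, Pold1, Pole2, Rfc3, Lig1 and Uhrf1. In Cdt1, Mcm3, Pold1, Pole2 and Lig1 it lay after the start. CCAAT was present in 59.0% of member promoters, 41.1% of all and 42.1% of those of genes tested in wounds. GGGCGG, a GC box, was in 76.9% of member promoters, 38.2% of all and 63.6% of those of genes tested in wounds. TTTGAA or TTCGAA are the words of the cell cycle homology region known from mitotic genes. They were in 17.9% of member promoters, 21.7% of all and 16.9% of those of genes tested in wounds. A match is a description of letters and not of binding.

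The upstream windows that hold E2F words are shown for the members whose word lies before the start, on the strand of the gene, 5′ to 3′, with the word or overlapping words in capitals. They are Orc1 at chr4:108579403-108579453 (+), Cdc6 at chr11:98907989-98908044 (+), Mcm5 at chr8:75109332-75109391 (+), Mcm6 at chr1:128359721-128359839 (-), Mcm7 at chr5:138172017-138172072 (-), Gins3 at chr8:95633494-95633549 (+), Pola1 at chrX:93632262-93632317 (-), Rfc3 at chr5:151651209-151651242 (-) and Uhrf1 at chr17:56304104-56304159 (+).
Orc1: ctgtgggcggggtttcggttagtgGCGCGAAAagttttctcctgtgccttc
Cdc6: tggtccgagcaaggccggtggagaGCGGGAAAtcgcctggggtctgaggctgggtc
Mcm5: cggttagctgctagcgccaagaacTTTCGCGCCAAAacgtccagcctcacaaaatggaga
Mcm6: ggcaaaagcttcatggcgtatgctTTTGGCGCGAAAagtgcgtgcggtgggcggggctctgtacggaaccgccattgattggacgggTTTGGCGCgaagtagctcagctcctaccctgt
Mcm7: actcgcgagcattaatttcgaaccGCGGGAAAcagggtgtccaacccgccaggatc
Gins3: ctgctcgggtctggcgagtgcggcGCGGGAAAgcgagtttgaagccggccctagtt
Pola1: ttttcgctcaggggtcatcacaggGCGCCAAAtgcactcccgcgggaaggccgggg
Rfc3: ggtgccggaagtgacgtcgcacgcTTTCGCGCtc
Uhrf1: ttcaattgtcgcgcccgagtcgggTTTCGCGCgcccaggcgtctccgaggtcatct

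**Figure D2:**
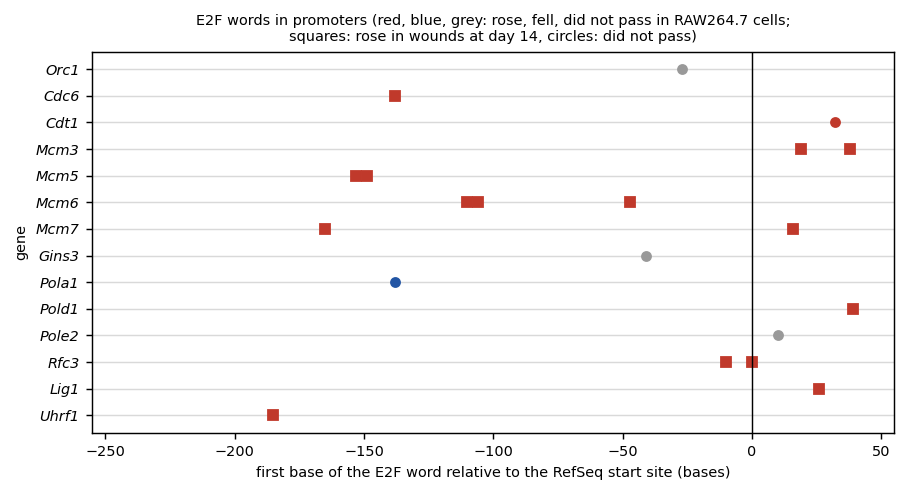
Position of each E2F word (first base, in bases from the RefSeq start, upstream to the left) in the 14 members that hold one. Red, blue and grey mark members that rose, fell or did not pass in RAW264.7 cells, squares mark the 9 that rose in wounds at day 14, and words lie on both sides of the start.

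At day 1, 6 of the 48 genes rose with hydrogel, where 4.53% of all 17592 genes tested in wounds rose, 3.02% fell and 7.55% passed in either direction. They were the helicase subunits Mcm2 (log2 fold change 1.34, SE 0.31, adjusted p = 0.0218) and Mcm5, the helicase activation gene Gins2 (1.34, SE 0.36, adjusted p = 0.0352), the catalytic polymerase delta subunit Pold1 (1.15, SE 0.25, adjusted p = 0.0170), the clamp loader subunit Rfc1 (0.57, SE 0.16, adjusted p = 0.0401) and thymidine kinase Tk1, with the greatest change of the 6 (1.93, SE 0.45, adjusted p = 0.0223). Each had all 3 hydrogel libraries above all 3 controls, as had 19 of the 48 genes, against 9.57% of all genes (7.52% had all 3 lower). In whole tissue, fewer cells of a type and less RNA per cell cannot be told apart, here and in every wound comparison that follows.

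Mcm5 (chr8:75109569-75127693, + strand, mm10) had 7.75, 5.31 and 5.70 CPM in the control wounds of day 1 and 26.7, 13.7 and 17.8 CPM in the hydrogel wounds, and rose (1.63, SE 0.44, adjusted p = 0.0384). The groups do not overlap, and hydrogel replicate 1 was the highest. That library was the highest of its group for 37 of the 48 genes. Tk1 stood at 2.24, 5.61 and 4.18 CPM in controls and at 21.8, 9.94 and 14.1 CPM with hydrogel.

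The genes closest to the threshold without passing it were Uhrf1, which recruits DNA methylation to new DNA (1.71, SE 0.53, adjusted p = 0.0592), and Rfc2 (0.56, SE 0.17, adjusted p = 0.0595). Uhrf1 (chr17:56303321-56323486, + strand) had 5.37, 3.71 and 2.85 CPM in controls and 17.9, 9.47 and 11.9 CPM with hydrogel. Cdc6 (chr11:98907801-98923940, + strand), a loader of the helicase, went from 1.02, 1.36 and 1.14 CPM to 4.90, 2.05 and 2.64 CPM without passing (1.43, SE 0.48, adjusted p = 0.0803). The same was so for Rrm2 (chr12:24708241-24714146, + strand), the regulated subunit of ribonucleotide reductase, with 6.25, 4.40 and 6.08 CPM against 18.7, 9.10 and 13.9 CPM (1.31, SE 0.45, adjusted p = 0.0848), and for Pole (chr5:110286306-110337474, + strand), the catalytic subunit of polymerase epsilon, with 1.29, 2.58 and 3.42 CPM against 9.37, 4.89 and 5.12 CPM (1.40, SE 0.54, adjusted p = 0.121). In these 4 genes the hydrogel libraries were all above the controls.

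The other panel genes (Pcna, Cdc45, Tyms, Ccne1 and E2f1) overlapped between the groups at day 1. Pcna (chr2:132249162-132253314, - strand) had 94.1, 67.9 and 80.1 CPM in controls and 89.7, 71.2 and 64.2 CPM with hydrogel (-0.11, SE 0.29, adjusted p = 0.851). Cdc45 (chr16:18780447-18811987, - strand), which completes the active helicase, had 6.25, 5.69 and 5.51 CPM against 6.36, 5.21 and 7.04 CPM (0.09, SE 0.29, adjusted p = 0.871). Thymidylate synthase Tyms (chr5:30058202-30073617, - strand) had 10.7, 5.69 and 5.39 CPM against 23.8, 6.10 and 7.87 CPM, with 1 high hydrogel library (0.79, SE 0.46, adjusted p = 0.297). Cyclin E1, Ccne1 (chr7:38097984-38107534, - strand), which drives entry into S phase, had 4.69, 0.758 and 1.27 CPM against 4.30, 5.05 and 4.45 CPM (1.03, SE 0.50, adjusted p = 0.207). E2f1 (chr2:154559407-154569720, - strand), a transcription factor of that step, had 16.5, 2.43 and 2.28 CPM against 13.6, 5.37 and 6.88 CPM (0.27, SE 0.56, adjusted p = 0.792), with replicate 1 the highest in both groups. The other cyclin E gene, Ccne2, had 3.60, 2.05 and 3.17 CPM against 3.87, 4.68 and 5.28 CPM, without overlap, and did not pass (0.65, SE 0.34, adjusted p = 0.244). Over all 48 genes the median log2 fold change was 0.51, against 0.04 over all genes tested, and 39 lay above 0. By role the median was 1.19 for the 3 chromatin genes, 0.60 for the 11 licensing genes and 0.22 for the 6 clamp and clamp loader genes. The day 1 count rests on few libraries: it was 2 without hydrogel replicate 3 and 3 without control replicate 2 or control replicate 3. Of all genes 2.34%, 4.15% and 7.75% passed in these fits. With the replicate number as a block 5 members passed, without Mcm5 (adjusted p = 0.0509), where 7.09% of all genes passed. Control replicate 1 differed from replicates 2 and 3 in tissue markers, with summed adipocyte levels of 55610, 9013 and 4157 CPM and skeletal muscle levels of 6995, 225380 and 133070 CPM, while the hydrogel libraries had 1570 to 4902 and 106280 to 182080 CPM. Of 15 mitotic genes 5 rose, 5 of 6 erythrocyte markers fell and 2 of 6 neutrophil markers rose, with summed neutrophil levels of 128 to 204 CPM in controls and 180 to 920 CPM with hydrogel. The part of these cells in the result was not tested.

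At day 7, 7 of 48 members rose with hydrogel (9.86% of all genes rose and 11.7% fell, 21.6% in either direction). Dnph1, which hydrolyses a modified deoxynucleotide before it can enter DNA, had the greatest change. It had 2.75, 3.25 and 2.51 CPM in controls and 11.6, 13.3 and 15.4 CPM with hydrogel (2.24, SE 0.47, adjusted p = 0.00572). Ung, the glycosylase that cuts uracil out of DNA, had 4.61, 5.22 and 4.82 CPM in controls and 14.8, 16.2 and 16.1 CPM with hydrogel (1.68, SE 0.43, adjusted p = 0.0130). Neither gene overlapped between the groups. Cdt1 (1.12, adjusted p = 0.0343), Rfc4 (1.06, adjusted p = 0.0370), Mcm2 (0.92, adjusted p = 0.0464), and the single-strand binding subunits Rpa1 (0.62, adjusted p = 0.0141) and Rpa2 (0.67, adjusted p = 0.0490) also rose. Mcm2 was the only member that rose at all 3 days, and it was the only one shared by the day 1 and day 7 calls.

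Mcm3 was the gene closest to passing at day 7 (0.83, SE 0.32, adjusted p = 0.0765). Mcm5 had 13.9, 13.9 and 13.8 CPM in controls and 23.7, 20.5 and 28.3 CPM with hydrogel (0.80, SE 0.43, adjusted p = 0.190). Uhrf1 had 10.7, 8.54 and 9.78 CPM against 19.3, 19.1 and 22.0 CPM (1.06, SE 0.51, adjusted p = 0.143). Like these, Pcna, Pole, Rrm2 and Tyms had every hydrogel library above every control without passing. Pcna had 64.3, 62.5 and 63.1 CPM against 88.2, 88.8 and 88.3 CPM (0.48, SE 0.29, adjusted p = 0.243), and Tyms 15.9, 15.2 and 14.5 CPM against 28.5, 23.4 and 26.4 CPM (0.78, SE 0.45, adjusted p = 0.225). Pole had 5.58, 6.30 and 5.38 CPM against 9.76, 9.24 and 9.55 CPM (0.73, SE 0.52, adjusted p = 0.328), and Rrm2 15.8, 18.1 and 16.8 CPM against 22.7, 20.8 and 21.4 CPM (0.36, SE 0.44, adjusted p = 0.580).

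A separate set of members lay lower with hydrogel at day 7. E2f1 had 16.6, 18.7 and 16.2 CPM in controls and 9.12, 9.02 and 11.9 CPM with hydrogel (-0.78, SE 0.55, adjusted p = 0.320), and Ccne1 7.81, 7.25 and 7.40 CPM against 5.67, 4.09 and 5.14 CPM (-0.59, SE 0.49, adjusted p = 0.393). Neither overlapped between the groups, and neither passed. With Orc6, Gins3, Gins4, Pola2 and Rfc2 they make 7 members whose hydrogel libraries were all lower, beside 30 whose hydrogel libraries were all higher. Among all genes these shares were 34.9% and 35.3%, so groups that do not overlap are common at day 7. Cdc6 (4.61, 5.15 and 3.63 CPM against 3.52, 3.92 and 4.61 CPM) and Cdc45 (7.36, 10.1 and 8.45 CPM against 9.48, 8.34 and 8.48 CPM) overlapped between the groups, with adjusted p of 0.833 and 0.965.

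The spread given to day 7 decides its count. With the day 7 groups fitted alone 31 of 47 members tested rose and 6 fell, where 70.2% of all genes passed. With limma-voom quality weights 31 rose and 8 fell, where 70.1% of all genes passed. Ccne1 and E2f1 fell in both. These larger counts thus came with a larger share of all genes, which was 21.6% in the main fit. Leaving out any 1 of the 6 day 7 libraries left 1 to 3 members that rose, and the share of all genes was then below 21.6%. The tissue markers moved far at this day: 6 of 8 basal keratinocyte markers rose (summed level 895 to 897 CPM in controls, 7869 to 8006 CPM with hydrogel), 5 of 8 epidermal differentiation markers rose, and 7 of 8 adipocyte markers (23533 to 24229 CPM in controls, 1017 to 1210 CPM with hydrogel), 6 of 6 erythrocyte markers, 8 of 8 macrophage markers, 7 of 8 fibroblast markers and 7 of 8 endothelial markers fell. Of the 15 mitotic genes 1 rose, Ccnb1. The part of the cell mix in the day 7 values was not tested.

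**Figure D3:**
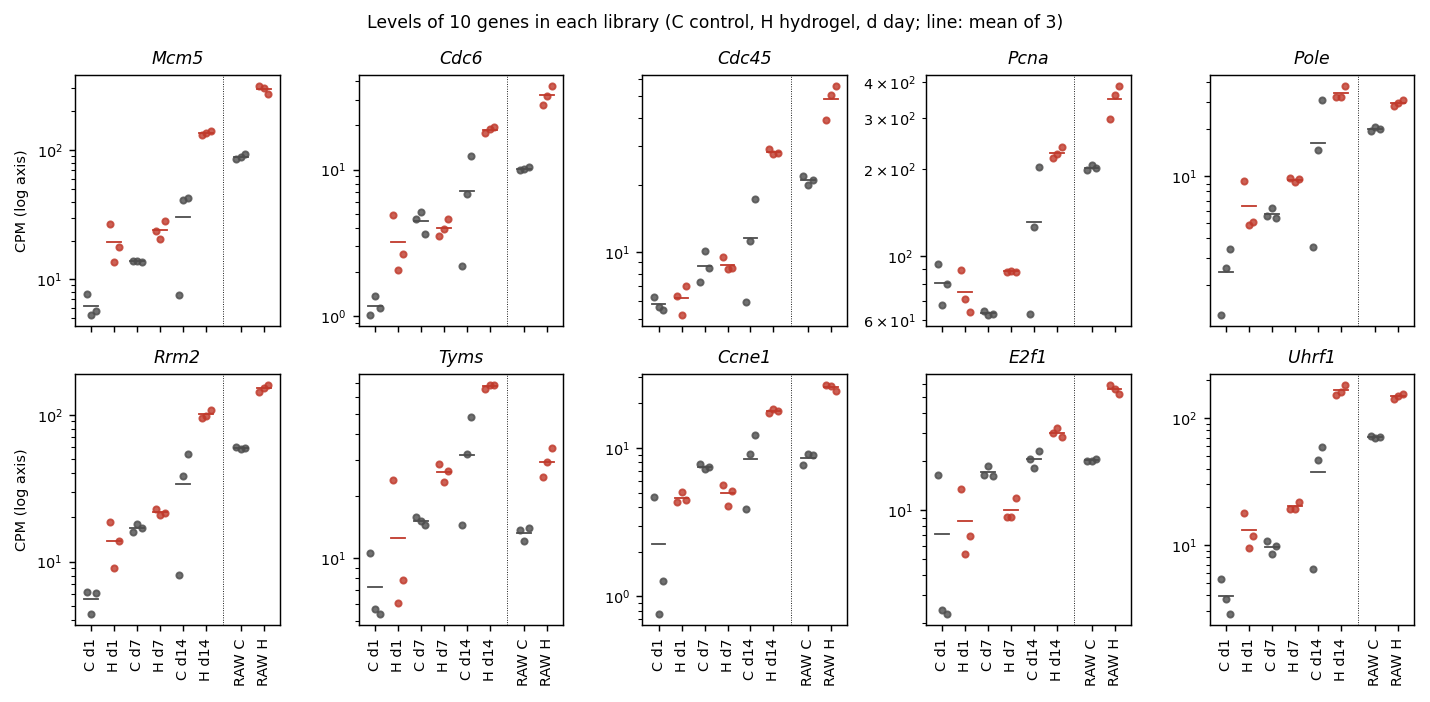
CPM (log axis) of 10 genes in each library (points; grey C control, red H hydrogel, d day, and to the right of the dotted line RAW264.7 cells without and with hydrogel), with the mean of each group of 3 as a line. In the day 14 hydrogel wounds the 3 points of each gene lie close together, and in the day 14 controls replicate 1 of Mcm5 (7.60 CPM) lies far below the others (41.2 and 43.0 CPM).

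At day 14 most roles moved together: 26 of 48 members rose with hydrogel, where 5.83% of all genes rose and 10.3% fell (16.1% in either direction), and all 48 had a log2 fold change above 0, with a median of 1.09 against 0.03 for all genes tested. In 43 members every hydrogel library was above every control, against 23.8% of all genes. Calls were made in every role but S phase entry. They were 7 of 11 licensing genes (Cdc6 and Mcm2 to Mcm7), 1 of 6 helicase activation genes (Cdc45), 2 of 8 polymerase and primase genes (Pold1 and Prim2), 5 of 6 clamp and clamp loader genes (Rfc1 to Rfc5), 4 of 4 genes of Okazaki fragments and single strands (Fen1, Lig1, Rpa1 and Rpa2), 5 of 7 genes of nucleotide supply and uracil removal (Rrm1, Rrm2, Tk1, Ung and Dnph1), and 2 of 3 chromatin genes (Uhrf1 and Chaf1a).

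Among the licensing genes, Mcm5 had 7.60, 41.2 and 43.0 CPM in the control wounds of day 14 and 131, 135 and 141 CPM with hydrogel, a 4.43-fold difference (log2 fold change 2.15, SE 0.44, adjusted p = 0.00577). Mcm6 (1.88, SE 0.41, adjusted p = 0.00760), Mcm2 (1.66, SE 0.31, adjusted p = 0.00376), Mcm7 (1.39, SE 0.27, adjusted p = 0.00447), Mcm4 (1.32, adjusted p = 0.00727) and Mcm3 (1.23, adjusted p = 0.0192) rose with it, so all 6 subunits of the MCM ring passed. Cdc6 had 2.20, 6.77 and 12.4 CPM in controls and 17.8, 18.8 and 19.6 CPM with hydrogel (1.39, SE 0.44, adjusted p = 0.0445). Its hydrogel libraries were all above its controls, and so were those of Orc1, Orc6 and Cdt1, which did not pass. Gmnn, which encodes the inhibitor of Cdt1, had 0.70 (SE 0.42, adjusted p = 0.262).

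Among the genes of the moving fork, Cdc45 had 5.98, 11.2 and 17.4 CPM in controls and 29.1, 27.5 and 27.9 CPM with hydrogel (1.29, SE 0.29, adjusted p = 0.00865). Pole had 3.54, 14.7 and 30.9 CPM against 32.3, 32.4 and 38.0 CPM and did not pass (1.06, SE 0.51, adjusted p = 0.166). Pcna had 63.2, 126 and 203 CPM against 218, 225 and 238 CPM and did not pass either (0.80, SE 0.29, adjusted p = 0.0732). In all 3 the hydrogel libraries lay above the controls, and control replicate 1 was the lowest and replicate 3 the highest. Fen1 had the greatest fold of the 48 genes, 0.290, 1.50 and 0.595 CPM against 3.51, 4.02 and 5.01 CPM (2.36, SE 0.54, adjusted p = 0.00965), at levels the shared exons make low. Gins4 had the smallest difference (0.10, SE 0.17, adjusted p = 0.725), at 33.6, 23.8 and 31.9 CPM in controls and 31.2, 32.5 and 32.1 CPM with hydrogel. Its groups overlap. Pola2 stood just outside the threshold (0.82, SE 0.27, adjusted p = 0.0529) and Dnph1 just inside it (1.39, SE 0.45, adjusted p = 0.0469).

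Of the nucleotide genes, Rrm2 had 8.06, 38.5 and 54.2 CPM in controls and 95.2, 98.4 and 108 CPM with hydrogel (1.58, SE 0.44, adjusted p = 0.0254). Its partner Rrm1 had the smallest adjusted p of the role (1.30, SE 0.25, adjusted p = 0.00406), and Tk1 rose too (1.41, SE 0.43, adjusted p = 0.0365). Tyms had 14.5, 31.8 and 48.3 CPM against 65.7, 68.7 and 68.6 CPM without passing (1.10, SE 0.45, adjusted p = 0.106). The 3 S phase entry genes did not pass in the main edgeR fit of all 18 wound libraries. Ccne1 had 3.89, 9.08 and 12.3 CPM against 17.3, 18.3 and 17.7 CPM (1.08, SE 0.48, adjusted p = 0.134) and E2f1 20.6, 18.3 and 23.0 CPM against 29.9, 32.0 and 28.3 CPM (0.54, SE 0.54, adjusted p = 0.521). Both had all hydrogel libraries above the controls. Uhrf1 had 6.44, 47.0 and 59.0 CPM in controls and 152, 161 and 182 CPM with hydrogel (2.14, SE 0.51, adjusted p = 0.0128), and Chaf1a, a subunit of the assembly factor that places histones on new DNA, rose by a similar amount (1.82, SE 0.36, adjusted p = 0.00510).

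The spread at day 14 lay in the controls: the median coefficient of variation over the 48 genes was 52.7% there and 5% in the hydrogel wounds. The summed level of the 48 genes was 675, 1259 and 1753 CPM in controls 1, 2 and 3, and 2652, 2751 and 2886 CPM with hydrogel. The controls differed in tissue markers in the same order. Basal keratinocyte markers summed to 642, 4257 and 5801 CPM, hair matrix markers to 5.28, 230 and 540 CPM, fibroblast markers to 47453, 18235 and 10610 CPM and macrophage markers to 3635, 1496 and 485 CPM in controls 1, 2 and 3. With hydrogel these 4 lists lay at 4939 to 5792, 1059 to 2206, 2078 to 2663 and 69.5 to 97.5 CPM.

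Without control replicate 1 the median log2 fold change was 0.75 and 16 members passed. Without control replicate 3 the median was 1.56 and 41 passed, without control replicate 2 17 passed, and without hydrogel replicate 1, 2 or 3 the counts were 16, 14 and 10. Of all genes 6.97%, 23.9% and 14.3% passed without control replicate 1, 3 and 2. Without hydrogel replicate 1, 2 or 3 the shares were 10.4%, 5.67% and 4.48%. With the day 14 groups fitted alone, where the control spread is used as it stands, 1 member passed and 34 had an unadjusted p below 0.05. Of all genes 2.61% passed in that fit. At day 14, 8 of 15 mitotic genes and 3 of 7 hair matrix markers rose, 8 of 8 macrophage markers, 7 of 8 fibroblast markers and 4 of 6 neutrophil markers fell, and 0 of 8 basal keratinocyte markers passed in edgeR (median log2 fold change 0.36, 0 at an unadjusted p below 0.05). The part of these cells in the day 14 result was not tested.

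**Figure D4:**
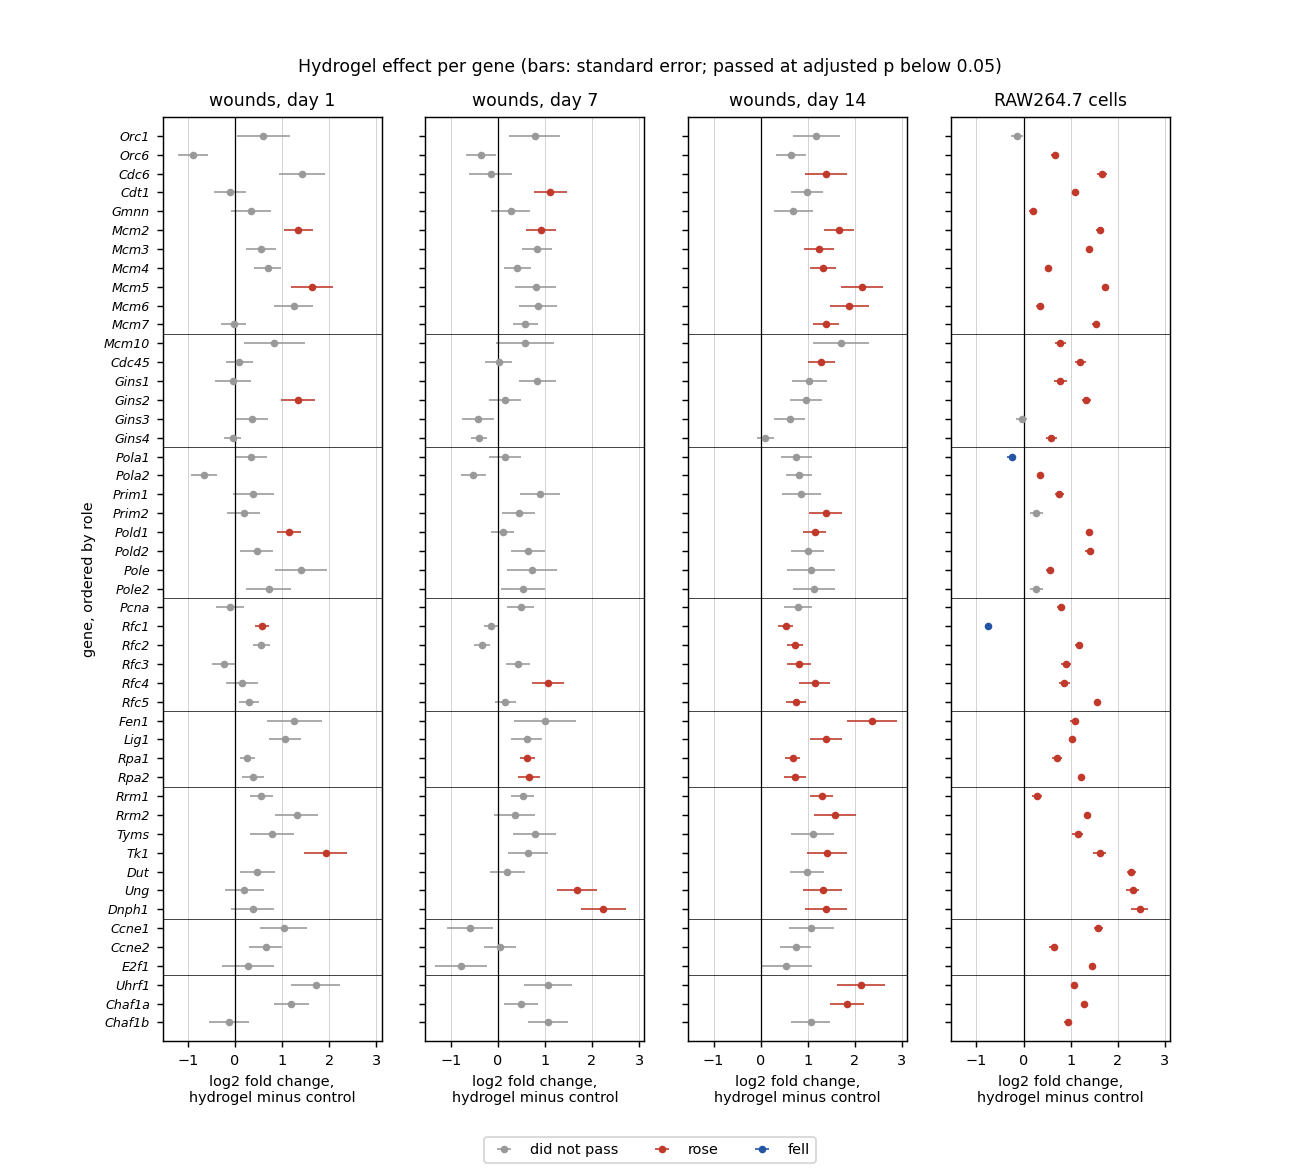
Log2 fold change (hydrogel minus control, bars 1 SE) of each of the 48 genes at day 1, day 7 and day 14 in wounds and in RAW264.7 cells, with genes that rose in red, that fell in blue and that did not pass in grey. At day 14 all points lie right of 0, and in RAW264.7 cells the bars are much shorter, with Rfc1 (-0.75) farthest to the left.

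The days were also compared within each arm. In control wounds 9 members rose and 3 fell from day 1 to day 7 (15.0% and 16.6% of all genes, 31.6% in either direction). Tk1 (2.03, SE 0.45, adjusted p = 0.00486), Cdc6 (1.92, adjusted p = 0.00891), Ccne1 (1.74, adjusted p = 0.0182), Gins2 (1.72, adjusted p = 0.00316), Rrm2 (1.60, adjusted p = 0.0163), Pola1 (1.21, adjusted p = 0.0165), Dut (1.15, adjusted p = 0.0303), Pold1 (0.84, adjusted p = 0.0206) and Rfc2 (0.48, adjusted p = 0.0460) rose. Pold2 (-1.08, adjusted p = 0.0342), Rpa1 (-0.54, adjusted p = 0.0189) and Rpa2 (-0.68, adjusted p = 0.0348) fell. Chaf1a lay nearest outside (0.99, adjusted p = 0.0549). The 2 Rpa genes that fell here also work in repair. The count of 12 was 19 without control day 1 replicate 1, 3 without control day 1 replicate 2, 7 without control day 1 replicate 3, and 6 to 7 without a day 7 control. Of all genes 43.8%, 18.2%, 21.5% and 19.1% to 19.4% passed in these fits. Between these days 13 of 15 mitotic genes rose (34.2 to 47.2 CPM summed at day 1, 182 to 190 CPM at day 7), as did 8 of 8 fibroblast markers (577 to 1441 and 10333 to 10467 CPM) and 5 of 8 macrophage markers (349 to 922 and 2152 to 2174 CPM), and 6 of 8 epidermal differentiation markers fell. Their part in the result was not tested.

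From day 7 to day 14, 10 members rose in control wounds (6.33% of all genes rose and 5.87% fell, 12.2% in either direction), led by Uhrf1 (1.96, SE 0.52, adjusted p = 0.0241), Orc1 (1.73, adjusted p = 0.0463), Ung (1.70, adjusted p = 0.0185) and Chaf1b (1.67, adjusted p = 0.0198). Cdt1, Mcm3, Mcm2, Rfc4, Pcna and Mcm7 were the others, and Prim1 lay nearest outside (1.34, adjusted p = 0.0527). Only 6 members had all day 14 controls above all day 7 controls, against 15.1% of all genes. The libraries of day 14 differed: replicate 1 was above every day 7 control for 8 of 48 genes, replicate 2 for 43 and replicate 3 for 46. Without replicate 1 the count was 35, without replicate 2 it was 3, and without replicate 3 no member passed in edgeR, with 12 at an unadjusted p below 0.05. Of all genes 26.3%, 5.32% and 4.76% passed in these fits. Without 1 of the day 7 controls the member count was 0 or 1, with 21 to 24 at an unadjusted p below 0.05. There 4.25% to 4.46% of all genes passed. DESeq2 with all libraries gave 21 and limma-voom 38, where 16.1% and 43.9% of all genes passed.

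In hydrogel wounds little passed from day 1 to day 7. Chaf1b (1.26, SE 0.42, adjusted p = 0.0494), Pola1 (1.02, SE 0.34, adjusted p = 0.0494) and Rfc3 (0.90, SE 0.26, adjusted p = 0.0259) rose and Rfc1 fell (-0.50, SE 0.16, adjusted p = 0.0394), where 7.76% of all genes rose and 10.5% fell, 18.3% in either direction. Prim1 lay nearest outside (1.17, adjusted p = 0.0685). Without hydrogel day 1 replicate 1 10 members passed, and without any 1 of the other 5 libraries none passed in edgeR, with 5 to 7 at an unadjusted p below 0.05. Of all genes 28.5% passed in the first of these fits and 5.51% to 8.93% in the others.

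From day 7 to day 14 in hydrogel wounds 42 of 48 members rose (11.7% of all genes rose and 9.6% fell, 21.3% in either direction) with a median log2 fold change of 1.38 against 0.01 for all genes. All 48 had every day 14 library above every day 7 library, against 34.8% of all genes. Uhrf1 had the greatest change, from 19.3, 19.1 and 22.0 CPM to 152, 161 and 182 CPM (3.03, SE 0.53, adjusted p = 0.00245), an 8.20-fold rise. Fen1 (2.85, adjusted p = 0.00423), Mcm10 (2.56, adjusted p = 0.0113), Mcm5 (2.49, SE 0.45, adjusted p = 0.00265), Chaf1a (2.32, adjusted p = 0.00138), Cdc6 (2.22, adjusted p = 0.00537), Rrm2 (2.22, adjusted p = 0.00502) and Orc1 (2.12, adjusted p = 0.0119) followed. Ccne1 went from 5.67, 4.09 and 5.14 CPM to 17.3, 18.3 and 17.7 CPM (1.84, SE 0.49, adjusted p = 0.0176) and Pcna from 88.2, 88.8 and 88.3 CPM to 218, 225 and 238 CPM (1.36, SE 0.30, adjusted p = 0.00673).

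The 6 that did not pass in that step were E2f1 (1.59, SE 0.56, adjusted p = 0.0537), Gmnn (1.14, adjusted p = 0.0644), Pold2 (0.81, adjusted p = 0.117), Gins4 (0.35, adjusted p = 0.162), Dnph1 (0.60, adjusted p = 0.347) and Rpa1 (0.19, adjusted p = 0.411). Tyms lay just inside the threshold (1.37, SE 0.45, adjusted p = 0.0433). With the 3 day 7 libraries of each arm summed to 1, the median log2 fold change of the 48 genes was 1.355. That fit leaves 1 day 7 library per arm, so only the effect size is given. The count of members that passed was 24 to 26 without hydrogel day 7 replicate 1 or 2 or hydrogel day 14 replicate 3. Without another library it was 29 to 38. Of all genes 7.21% to 15.4% passed when 1 library was left out. The day 14 hydrogel libraries enter both this comparison and that with the day 14 controls. Summed mitotic levels in hydrogel wounds were 350 to 389 CPM at day 7 and 1363 to 1758 CPM at day 14. Hair matrix markers were at 22.2 to 23.6 and 1059 to 2206 CPM, basal keratinocyte markers at 7869 to 8006 and 4939 to 5792 CPM. Skeletal muscle markers fell from 94443 to 108140 CPM to 13534 to 23798 CPM. Macrophage (282 to 337 and 69.5 to 97.5 CPM) and endothelial markers (335 to 353 and 101 to 140 CPM) were also lower. Fibroblast (1468 to 1708 and 2078 to 2663 CPM) and T and NK cell markers (19.7 to 25.9 and 30.6 to 32.1 CPM) were higher. The part of these cells in the result was not tested.

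Whether the hydrogel effect itself changed with the day was tested with both interaction contrasts together. Among the 48 genes 3 passed, against 15.8% of all genes. These were Rfc2 (0.56, -0.33 and 0.72 at day 1, 7 and 14, adjusted p = 0.0173), Pola2 (-0.66, -0.52 and 0.82, adjusted p = 0.0273) and Mcm7 (-0.03, 0.58 and 1.39, adjusted p = 0.0440), and Rfc1 lay nearest outside (0.57, -0.14 and 0.53, adjusted p = 0.0560). Pola2, the regulatory subunit of polymerase alpha, had 42.6, 26.8 and 18.6 CPM in controls and 24.0, 13.7 and 18.3 CPM with hydrogel at day 1, and 17.3, 23.3 and 29.5 CPM against 37.0, 42.5 and 44.5 CPM at day 14. Its groups overlap at day 1 and not at day 14. For the other 45 genes a larger effect at day 14 than at day 1 or day 7 was not shown. When control day 14 replicate 3 was left out 16 members passed, and when control day 14 replicate 1 was left out 6. Leaving out replicate 1 of day 1 gave 8 for the control arm and 7 for the hydrogel arm. Any other library left out gave 0 to 2, with 8 to 11 at an unadjusted p below 0.05. Of all genes 18.5% to 29.2% passed in the fits named and 8.94% to 14.4% in the others.

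In RAW264.7 cells 42 of 48 members rose with hydrogel and 2 fell, where 34.7% of all 12972 genes tested rose and 37.8% fell, 72.5% in all. The median log2 fold change of the 48 genes was 1.06 against -0.04 for all genes, and the 42 that rose were the 42 whose hydrogel libraries were all above the controls (36.0% of all genes, with 39.9% all below). The 3 genes with the greatest change were those that clear uracil and modified nucleotides. Dnph1 had 4.18, 3.81 and 3.19 CPM without hydrogel and 25.3, 21.0 and 15.9 CPM with it (2.47, SE 0.18, adjusted p = 8.23e-07). Ung had 2.67, 2.90 and 2.94 CPM against 16.4, 13.7 and 12.4 CPM (2.31, SE 0.13, adjusted p = 1.77e-07). Dut, the dUTPase, had 10.5, 10.9 and 9.73 CPM against 55.7, 50.9 and 45.2 CPM (2.29, SE 0.09, adjusted p = 3.78e-08). The groups are far apart in all 3 genes, with fitted fold changes of 4.88 to 5.52. In each the hydrogel libraries went down from replicate 1 to replicate 3. Over the 48 genes hydrogel replicate 1 was the highest of its group for 17 and replicate 3 for 28. The labels of these libraries differ (Hyd3, Hyd4 and Hyd5), and whether they are replicates of 1 gel is not settled.

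Of the 11 licensing genes 10 rose. Mcm5 had 84.9, 87.8 and 93.4 CPM without and 314, 301 and 271 CPM with hydrogel (1.73, SE 0.07, adjusted p = 3.88e-08). Cdc6 had 9.90, 10.1 and 10.4 CPM against 27.5, 31.8 and 37.1 CPM (1.67, SE 0.11, adjusted p = 4.65e-07), and Mcm2 rose by nearly as much (1.61, SE 0.07). Within the MCM ring the changes were unequal, from 1.73 for Mcm5 and 1.53 for Mcm7 to 0.52 for Mcm4 and 0.35 (SE 0.08, adjusted p = 0.00242) for Mcm6. Orc1, the largest subunit of the origin recognition complex, had 23.1, 22.3 and 20.5 CPM against 15.5, 21.2 and 22.9 CPM (-0.14, SE 0.13, adjusted p = 0.352). Its groups overlap. Gmnn lay just inside the threshold (0.20, SE 0.08, adjusted p = 0.0392) and did not pass without any 1 of the controls (adjusted p 0.0654 to 0.136).

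Of the helicase activation genes, Cdc45 had 22.0, 20.1 and 21.1 CPM against 39.0, 50.9 and 55.7 CPM (1.21, SE 0.12, adjusted p = 6.30e-06) and Gins2 rose by 1.33 (SE 0.09), while Gins3 did not pass (-0.04, SE 0.12, adjusted p = 0.768). Polymerase alpha and primase gave mixed results. Pola1, the catalytic subunit, had 20.7, 21.4 and 22.2 CPM without and 20.5, 17.1 and 16.6 CPM with hydrogel (-0.25, SE 0.09, adjusted p = 0.0290). That call was lost without either hydrogel replicate 2 or 3, without any 1 of the controls, with RLE size factors (adjusted p = 0.0932) and in DESeq2 (adjusted p = 0.166). Prim2 (0.27, adjusted p = 0.0946, nearest outside the threshold) and Pole2 (0.27, adjusted p = 0.105) did not pass. Pold1 and Pold2, both of polymerase delta, rose by 1.40 each (SE 0.08 and 0.10), and Pole had 19.7, 20.8 and 20.2 CPM against 28.1, 29.7 and 31.0 CPM (0.55, SE 0.07, adjusted p = 4.73e-05).

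The 5 subunits of the clamp loader did not move as one. Rfc1, the large subunit, fell from 64.3, 59.9 and 60.0 CPM to 36.2, 37.4 and 36.1 CPM (-0.75, SE 0.06, adjusted p = 1.99e-06), while Rfc5 rose by 1.56 (SE 0.07), Rfc2 by 1.18 (SE 0.08), Rfc3 by 0.91 (SE 0.10) and Rfc4 by 0.87 (SE 0.12). The Rfc1 groups do not overlap. Pcna, the clamp itself, had 198, 206 and 201 CPM against 298, 361 and 388 CPM (0.79, SE 0.09, adjusted p = 1.66e-05). The 4 genes of Okazaki fragments and single strands rose by 0.71 (Rpa1) to 1.22 (Rpa2).

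Rrm2 had 59.8, 58.3 and 59.1 CPM without and 142, 152 and 159 CPM with hydrogel (1.36, SE 0.06, adjusted p = 6.09e-08), but the other reductase subunit Rrm1 rose by 0.29 (SE 0.10, adjusted p = 0.0222). Tyms had 13.7, 12.1 and 14.0 CPM against 24.6, 29.3 and 34.1 CPM (1.15, SE 0.12, adjusted p = 9.14e-06). In wounds the S phase entry genes did not pass between the arms at any day in the main edgeR fit. With the day 7 groups fitted alone, where 70.2% of all genes passed, Ccne1 and E2f1 fell. The difference between cells and wounds was not tested. In the cells all S phase entry genes rose. Ccne1 had 7.64, 9.08 and 8.94 CPM against 26.6, 26.1 and 24.3 CPM (1.59, SE 0.09, adjusted p = 1.83e-07) and E2f1 20.1, 20.2 and 20.8 CPM against 59.3, 55.6 and 52.4 CPM (1.45, SE 0.07, adjusted p = 8.14e-08). Uhrf1 had 71.9, 69.4 and 70.7 CPM against 142, 149 and 155 CPM (1.07, SE 0.06, adjusted p = 1.47e-07). The groups of these genes do not overlap. Of the 15 mitotic genes, 12 rose and 1 (Bub1, -0.31, adjusted p = 0.00606) fell in the cells.

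**Figure D5:**
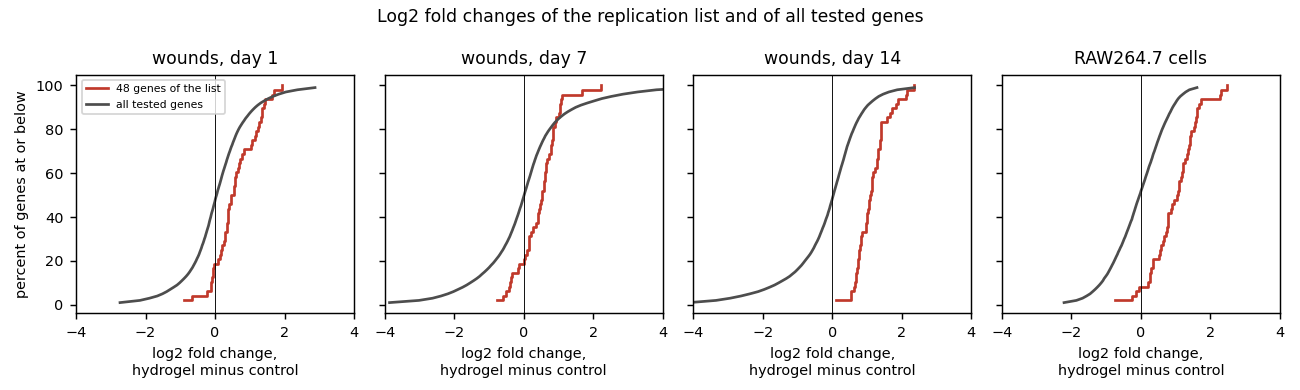
Cumulative distribution of log2 fold changes (hydrogel minus control) of the 48 genes and of all tested genes, by comparison. The curve of the 48 genes lies to the right of that of all genes over most of its range (the curves cross near the top at day 1 and day 7), with medians of 0.51, 0.53 and 1.09 in wounds at day 1, 7 and 14 and 1.06 in RAW264.7 cells.

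Side by side, 24 of the 26 members that rose at day 14 also rose in the cells (92.3% of the first list and 57.1% of the second). The 2 others were Rfc1, which fell in the cells, and Prim2, which did not pass there. The cells and wounds share no library, and 18 of the 22 members that did not rise at day 14 rose in the cells as well. All 7 members that rose at day 7 and 5 of the 6 of day 1 rose in the cells too. Over the 3 wound days, 20 members never rose between the arms, 18 rose at 1 day, 9 at 2 and 1 at 3. The sizes differed by setting: Dnph1 had 0.38, 2.24 and 1.39 at day 1, 7 and 14 and 2.47 in the cells, Dut had 0.47, 0.20, 0.98 and 2.29, and Uhrf1 had 1.71, 1.06, 2.14 and 1.07.

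Members with an E2F word in the promoter were set beside those without one. At day 14, 9 of 14 members with a word rose and 14 of 25 without, with median log2 fold changes of 1.20 and 1.08. From day 7 to day 14 in hydrogel wounds the medians were 1.79 and 1.36. In RAW264.7 cells, 10 of 14 with a word rose and 1 fell, against 24 of 25 and 1 without. The Dnph1, Ung and Dut windows hold none of the 4 words. These counts are descriptions and were not tested.

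Other genes of replication, nucleotide supply, the step from G1 to S phase and replication-coupled chromatin numbered 99. At day 1, 12 rose and 3 fell, where 4.53% of all genes rose and 3.02% fell. Among them Cdkn1a, an inhibitor of cyclin-dependent kinases, fell (-1.26, SE 0.26, adjusted p = 0.0125), and Asf1b, a histone chaperone (1.94, adjusted p = 0.0164), the PCNA-binding factor gene Pclaf (2.99, adjusted p = 0.0177), the checkpoint mediator gene Clspn (2.72, adjusted p = 0.0190) and the CTP synthase gene Ctps (0.92, adjusted p = 0.0206) rose. At day 7, 11 of the 99 rose and 5 fell, where 9.86% of all genes rose and 11.7% fell. Of the 6 with the smallest adjusted p, 4 rose: Cdca7, which works with a chromatin remodeller (2.58, adjusted p = 0.00777), the folate enzymes Mthfd1 (1.28, adjusted p = 0.00831) and Shmt1 (2.11, adjusted p = 0.0109), and the purine enzyme Adsl (1.49, adjusted p = 0.0131). The other two, the guanine nucleotide enzyme Impdh1 (-1.16, adjusted p = 0.00540) and the kinase inhibitor Cdkn1c (-1.83, adjusted p = 0.0124), fell. By list, 8 of the 28 other nucleotide supply genes rose and 3 fell at day 7.

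At day 14, 18 of these 99 rose and 2 fell, where 5.83% of all genes rose and 10.3% fell, with a median log2 fold change of 0.63. Cad, which starts pyrimidine synthesis (1.40, SE 0.28, adjusted p = 0.00544), the cyclin D1 gene Ccnd1 (1.86, adjusted p = 0.00584), its partner kinase Cdk4 (0.96, adjusted p = 0.00758), Chtf8, of an alternative clamp loader (0.93, adjusted p = 0.00717), and Ctps (0.90, adjusted p = 0.0115) rose, and Cdkn1c fell (-2.22, SE 0.47, adjusted p = 0.00661). Over time in controls, 17 rose and 13 fell from day 1 to day 7 (15.0% and 16.6% of all genes), with Cdkn1a falling from 1102 ± 250 CPM to 161 ± 7.17 CPM (-2.78, SE 0.27, adjusted p = 2.71e-05). From day 7 to day 14 in controls 22 rose and 1 fell (6.33% and 5.87% of all genes). In hydrogel wounds 4 rose and 9 fell from day 1 to day 7 (7.76% and 10.5% of all genes), with Ctps (-1.39, adjusted p = 0.00186) and Cdkn1a (-1.52, adjusted p = 0.00311) among those that fell, and 53 rose and 1 fell (Cdkn1c) from day 7 to day 14 (11.7% and 9.6% of all genes), led by Cad (2.26, adjusted p = 0.000533), Cdk4 (1.45, adjusted p = 0.000863) and Ccnd1 (2.55, adjusted p = 0.00115).

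The interaction test passed for 6 of the 99, against 15.8% of all genes. They were Gmps (adjusted p = 0.00759), Shmt1, Cdkn2c, Cdkn1a, Orc2 and Dck. In RAW264.7 cells 53 of 98 tested rose and 21 fell, where 34.7% of all genes rose and 37.8% fell, with a median of 0.31. Cad (1.59, SE 0.06, adjusted p = 3.54e-08), the purine synthesis genes Atic (1.36, adjusted p = 3.54e-08) and Gart (1.33, adjusted p = 4.04e-08), thymidylate kinase Dtymk (1.71, adjusted p = 3.70e-08), the repressor E2f8 (1.90, adjusted p = 5.13e-08) and Impdh2 (1.31, adjusted p = 5.48e-08) rose. Of the 34 other origin and fork genes, 16 rose and 7 fell in the cells, with a median of 0.18.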

How the data were processed

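RNA-seq libraries of wounds and RAW264.7 cells were compared by group. The deposited counts are raw read pairs per gene symbol: per the file headers the authors used featureCounts 2.0.6 over exons, without strand, leaving out pairs that map to several places or fall on several genes, with the GENCODE M25 annotation of mm10. The submitters' processing notes name Trim Galore 0.6.10, FastQC 0.11.9, HISAT2 2.2.1 and SAMtools 1.9. Counts were filtered in edgeR 4.0.16 (filterByExpr, minimum count 10), scaled by TMM and fitted by the robust quasi-likelihood test (R 4.3.3), with wounds as 6 group means over 18 libraries and cells apart over 6. P-values were adjusted by Benjamini-Hochberg over all genes tested, and a gene passed at an adjusted p below 0.05, so every adjusted p given is from edgeR unless another tool is named. CPM values are TMM scaled. The fits were first run on simulated counts in which a gene had the same dispersion in every group. The unequal spread of the wound groups was not simulated. Deviations from the group means of same-numbered libraries correlated at 0.423, 0.323 and 0.118 between the arms at day 1. Deviations from a mean of 3 are not independent, and the labels give no source for a pairing, so a pairing was not shown. In no other pair of groups were all 3 over 0.1, but control wounds of day 1 and day 14 gave 0.332, 0.0841 and 0.323. The model has no replicate block, and a blocked value is given where it changes a member's day 1 call.

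Values were given for a panel of 10 genes in every library, for up to 10 members with the greatest change in each direction, for any against the majority, for those nearest the threshold and for up to 6 other pathway genes by adjusted p. The members and lists were chosen with earlier results of these data known. DESeq2 1.42.0, limma 3.58.1 (voom with quality weights), RLE size factors, other filters, fits to the compared groups only, a replicate block, summed day 7 libraries and leaving out each library were the alternatives.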

Additional observations from a re-analysis of the deposited data

Results flagged for a closer look

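The hydrogel effect on wounds differed between the days for 3 members in the edgeR interaction test, Rfc2 (adjusted p = 0.0173), Pola2 (adjusted p = 0.0273) and Mcm7 (adjusted p = 0.0440). Rfc2 and Pola2 lay below 0 at day 7 and above it at day 14, and Mcm7 grew from -0.03 at day 1 to 1.39 at day 14.

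In 10 cases a member had groups that do not overlap both in wounds and in RAW264.7 cells but in opposite directions (log2 fold changes, hydrogel against control); the difference was not tested. At day 1 this was Rfc1, with 0.57 in wounds and -0.75 in the cells. At day 7 the wound value was below 0 and the cell value above it for Orc6 (-0.36 and 0.67), Gins4 (-0.40 and 0.59), Pola2 (-0.52 and 0.34), Rfc2 (-0.33 and 1.18), Ccne1 (-0.59 and 1.59) and E2f1 (-0.78 and 1.45), while Pola1 had 0.15 and -0.25. At day 14 Pola1 had 0.76 and -0.25 and Rfc1 0.53 and -0.75. At day 7 no wound value of these 7 genes passed in the main edgeR fit of all 18 wound libraries. With the day 7 groups fitted alone in edgeR, Orc6, Gins4, Pola2, Rfc2, Ccne1 and E2f1 fell (adjusted p 5.75e-05 to 0.0112). In that fit 70.2% of all genes passed. The Pola1 value in the cells did not pass in DESeq2 or with RLE size factors. Groups of 3 were not tested for a library standing apart.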

How the results depend on the processing

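Among the values of single genes under all alternatives, 2479 of 3051 kept their direction and side of the threshold. Another 490 no longer passed, 80 newly passed, 2 moved and none reversed. The values include panel genes that did not pass in the main fit and count as kept while they still do not pass. In control wounds, day 14 against day 7, 170 values were kept and 69 no longer passed. In the cells these numbers were 512 and 16. The RAW264.7 count (44) stayed between 41 and 46 in every setting run, leaving out each library included, where 42.2% to 83.3% of all genes passed. The wound counts depend on the spread that the fit uses.

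Percentages in brackets are the shares of all genes that passed in the same fit. Hydrogel against control at day 1 (6 members, 7.55%): 3 without a filter (2.19%), 14 in DESeq2 (13.8%) and 14 in limma-voom (24.7%). In DESeq2 and limma-voom 13 rose and Orc6 fell. With only the compared groups 0 members passed (0 of all genes), with 11 members at an unadjusted p below 0.05. Leaving out 1 library gave 2 to 9 (2.34% to 16.6%). At day 7 (7): 3 without a filter, 39 in limma-voom (70.1% of all genes passed), 37 with only the compared groups (70.2% of all genes), 0 with summed libraries (1), and 1 to 3 without 1 library. At day 14 (26, 16.1%): 46 in limma-voom (33.4%), 1 with only the compared groups (2.61%), and 10 to 41 (4.48% to 23.9%). Control wounds, day 7 against day 1 (12, 31.6%): 27 in limma-voom (58.0%), and 3 to 19 (18.2% to 43.8%). Control wounds, day 14 against day 7 (10, 12.2%): 21 in DESeq2 (16.1%) and 38 in limma-voom (43.9%), where 37 rose and Gins4 fell. The compared groups alone gave 0 (8.13%), with 16 members at an unadjusted p below 0.05. Without 1 library it was 0 to 35 (4.25% to 26.3%). Hydrogel wounds, day 7 against day 1 (4, 18.3%): 2 without a filter (6.26%), 27 in limma-voom (52.5%) and 1 with only the compared groups (17.2%). Without 1 library it was 0 to 10 (5.51% to 28.5%). Hydrogel wounds, day 14 against day 7 (42, 21.3%): 24 to 38 without 1 library (7.21% to 15.4%). Interaction (3): 8 in DESeq2, 18 in limma-voom, 0 with summed libraries (3), and 0 to 16. Summing leaves 1 day 7 library per arm, assumed to vary like the other groups, so only effect sizes are given for that fit. There the median log2 fold change of the members was 0.52, 0.51 and 1.08 between the arms at day 1, 7 and 14. From day 1 to day 7 it was 0.46 in controls and 0.35 with hydrogel, and from day 7 to day 14 0.88 and 1.355. RLE size factors and the stricter filter kept each main count within 1.5 times.

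Whether the replicate numbers pair the samples was not shown in any comparison. With the replicate block the counts were 5, 7 and 27 at day 1, 7 and 14, where 7.09%, 24.3% and 17.4% of all genes passed. They were 13 and 8 in control wounds over time (33.0% and 11.8%) and 3 and 43 in hydrogel wounds over time (17.6% and 22.3%). For the interaction 3 passed (15.8%) and in the cells 43 (71.6%). The block changed no day 1 call of a member but that of Mcm5. Pold2 newly passed at day 14, and Gmnn no longer passed in the cells. Over time E2f1 newly passed in both arms, and Orc1 and Rfc4 (controls, day 14 against day 7) and Chaf1b (hydrogel, day 7 against day 1) no longer did. Counts below about 10 per library, as for Fen1 in control wounds at day 1 and day 7, limit what can be seen. Fen1 counts were also low in control wounds of day 14 (5, 35 and 13) and in hydrogel wounds of day 7 (13, 5 and 8). Its large changes in hydrogel wounds of day 14 are set against these groups.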
